A study of Equus caballus with 4 samples.

Results

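The TRAF, RIPK and cIAP signaling adaptors are intracellular proteins that pass a signal from an activated receptor to NF-kB, to stress kinases or to caspases. A list of 10 genes of this kind was followed in equine satellite cells (ESC): TRAF1, TRAF2, TRAF3, TRAF5, TRAF6, RIPK1, RIPK2, BIRC2, BIRC3 and TRADD. Their probes were found by the gene symbol in the scanner files, with no use of the measured values, and 16 of the 43603 different probes on the array carried a symbol of 9 of the 10 genes. The probe of TRAF6 carries an accession in place of a symbol and is named only in its description, so it lies outside this rule and its values are given separately. ESC are stem cells of muscle, which divide after injury and fuse to form myotubes, and these came from the semitendinosus muscle of horses. The study's methods state that 1 primary culture was selected for its viability and fusion, hence the replicates need not represent different horses.

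RNA was taken on day 3 of differentiation. Cells of the HMB-treated group were incubated for 24 h with 50 µM HMB (β-hydroxy-β-methylbutyrate, a metabolite of leucine) and were exposed to 3 mM H2O2 for the last 1 h. The control cells received H2O2 and no HMB, so both groups were under oxidative stress and the comparison asks what HMB changes in stressed cells. The HMB-treated RNA was labeled with Cy5 and the control RNA with Cy3, and a pair was hybridized together on each of 4 arrays of 1 slide. The dyes were not swapped, so the treatment cannot be told apart from the dye, and since each array names its control as replicate 1 in the labels, the control may be 1 RNA. If so, the errors below leave out the spread between controls.

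In the textbook scheme, TRADD and RIPK1 bind the death domain of the tumor necrosis factor (TNF) receptor and bring in TRAF2, which carries the ubiquitin ligases cIAP1 (encoded by BIRC2) and cIAP2 (encoded by BIRC3). The ubiquitin chains that the cIAPs place on RIPK1 recruit the TAK1 and IKK kinases, and without them RIPK1 can turn to caspase-8 and cell death. In resting cells TRAF2, TRAF3 and the cIAPs together keep NF-kB-inducing kinase low, and in muscle this non-canonical arm and TRAF6 are known from work on myoblast fusion and on wasting.

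The sequences of the probes are shown first, since the values that follow differ between genes as alike as BIRC2 and BIRC3, and since several probes of 1 gene overlap. All are printed 5′ to 3′ as the scanner files give them, and positions are those of the files on EquCab1. Capitals mark the 14 bases that the BIRC3 probe has in common with 1 of the BIRC2 probes, the longest run shared between the probes of these neighboring genes. Only the unbroken run is marked, and the bases that follow it in both probes are also alike, with single mismatches. The BIRC3 probe lies on chromosome 7, at chr7:8956147-8956206 on the plus strand, and its first 30 bases are printed. The 3 BIRC2 probes lie 37996 bases or more downstream on the same strand, at chr7:8994271-8994330, chr7:8994241-8994300 and chr7:8994203-8994262 in the order printed.
BIRC3 A_69_P068096: GGTACTGTTCGTACatttctttcatgaaga
BIRC2 A_69_P068101: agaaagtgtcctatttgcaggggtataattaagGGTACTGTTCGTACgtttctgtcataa
BIRC2 A_69_P068102: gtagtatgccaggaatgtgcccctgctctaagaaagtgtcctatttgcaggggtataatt
BIRC2 A_69_P068103: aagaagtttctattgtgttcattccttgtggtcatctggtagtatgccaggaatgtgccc

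The other 2 BIRC2 probes share runs of no more than 5 and 6 bases with the BIRC3 probe. The probe of TRAF2 is shown because its 60 bases are placed over 904 bases of chromosome 25 (chr25:187753-188656, minus strand), so that they are not contiguous in the genome. The files give no exons for a probe.
TRAF2 A_69_P015011: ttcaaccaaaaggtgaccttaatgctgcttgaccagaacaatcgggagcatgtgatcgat

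The 5 TRAF3 probes are near copies of each other on the plus strand of chromosome 24, each shifted by 1 base from the next, from chr24:43983460-43983519 to chr24:43983464-43983523. All 5 share 56 bases, so they are repeated readings of 1 site and not independent tests of the gene. The first 30 bases of the most upstream probe are printed, with the bases that all 5 probes hold in capitals.
TRAF3 A_69_P023660: cctgGGGTAGCTGGACATGTCAGCATGTTA

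RIPK2 has 2 probes that share no bases with each other and lie on the minus strand of unplaced sequence, at chrUn:157022138-157022197 and chrUn:157022204-157022263. They are printed because their values differed on each array.
RIPK2 A_69_P043921: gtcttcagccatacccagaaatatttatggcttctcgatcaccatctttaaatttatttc
RIPK2 A_69_P043922: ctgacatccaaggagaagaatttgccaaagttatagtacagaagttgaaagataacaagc

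Values are log2 ratios of the HMB-treated signal over the control signal, so a positive value is a higher expression in the HMB-treated group. A probe is said to rise or fall, or to be called, where the adjusted p of limma was 0.05 or less and the fold change (FC) was 1.3 or more, which is 0.379 on the log2 scale. All 16 probes passed the filter on dim probes. HMB-treated ESC showed higher expression of BIRC3, TRAF2, TRAF1 and RIPK1 and of TRAF3 on 3 of its 5 probes, when compared to control. Of the 16 probes, 7 rose (43.8%), 0 fell and 9 were not called. By the methods' t-test 0 fell as well, and 1 probe (TRADD) had a negative mean with an unadjusted p of 0.05 or less in limma. Over all 24670 tested probes, 28.6% were called, 12.1% as higher and 16.4% as lower. The median log2 ratio was 0.33 over the 16 probes and -0.07 over all tested probes. Counted by gene on the brightest probe, 4 of the 9 genes rose and 0 fell, against 27.3% of the 8330 tested symbols called in either direction, 10.1% as higher and 17.2% as lower. The genes were not chosen at random from the array, and nothing beyond this description is drawn from the shares.

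BIRC3 had the largest difference among these genes. Its log2 ratios were 4.07, 4.20, 4.14 and 3.52 on replicates 1 to 4, a mean of 3.98 ± 0.31 (SD, n = 4) or an FC of 15.8, with an adjusted p of 4.27e-06 by limma. The control signal lay between 94.6 and 134 and the HMB-treated signal between 1410 and 2365 units of processed intensity, so the channels did not overlap. Only 102 of the tested probes had a higher mean ratio. Replicate 4 gave the smallest rise of the 4, and its 3.52 still exceeded the highest ratio of any other member, 0.99. BIRC3 is also known as an NF-kB target gene.

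BIRC2, its neighbor and the nearest relative among these genes, was not called on any of its 3 probes. On A_69_P068101 the log2 ratios were -0.03, 0.12, 0.24 and 0.05, a mean of 0.09 ± 0.12 (SD, n = 4) with an adjusted p of 0.309. The other probes gave means of 0.11 (adjusted p = 0.221) and 0.21 (adjusted p = 0.0477 by limma, with an FC below the threshold). The probe with the 14 bases shared with BIRC3 had the lowest of the 3 means. The BIRC2 signal on A_69_P068103 ran from 2780 to 3787 in the control and from 3357 to 4739 in the HMB-treated group. On the same arrays BIRC3 exceeded BIRC2 on its brightest probe by 3.78 ± 0.27 on the log2 scale (SD, n = 4), and by 3.38 at the least. With 4 paired arrays, an exact two-sided permutation test cannot give a p below 0.125, so that difference is given with no test. No protein-coding gene lies between both in the gene order of a RefSeq annotation of the horse, whose assembly is not that of the array.

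Among the TRAF genes, TRAF2 had the largest rise. TRAF2 is the adaptor that docks the cIAPs to TNF receptors. Its log2 ratios were 0.99, 0.75, 0.92 and 0.53, a mean of 0.80 ± 0.21 (SD, n = 4) and an FC of 1.74 (adjusted p = 0.000972). Every array was above the threshold for FC, and the control signals of 71.3 to 100.2 lay below the HMB-treated signals of 102.7 to 189.5. The gap between the groups was narrow, since the control signal of replicate 3 and the HMB-treated signal of replicate 4 were nearly equal.

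TRAF1, a TRAF without the ring domain and itself induced by NF-kB, rose less. The log2 ratios were 0.50, 0.77, 0.35 and 0.20, a mean of 0.45 ± 0.24 (SD, n = 4), an FC of 1.37 and an adjusted p of 0.0121. All 4 arrays were positive but replicates 3 and 4 stayed under the FC threshold, and the signals of both groups overlapped between arrays (61.4 to 94.5 in the control and 71.2 to 120.2 with HMB). Its probe lies at chr25:14041589-14041648 on the plus strand. Without replicate 2 the mean was 0.35 and TRAF1 was not called.

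TRAF3, which restrains NF-kB-inducing kinase and also serves interferon induction, showed means of 0.30 to 0.41 on its 5 probes. The probes A_69_P023656, A_69_P023657 and A_69_P023659 were called (means of 0.40, 0.41 and 0.39, with adjusted p of 0.0222, 0.00704 and 0.00692 by limma). The probes A_69_P023658 and A_69_P023660 passed the p threshold, with 0.0185 and 0.0127, but had an FC of 1.27 and 1.23. The calls thus differed between probes that share 56 or more bases, although the array values of each pair of probes overlapped. The brightest probe, A_69_P023660, gave 0.32, 0.45, 0.20 and 0.24 and was not called. Replicate 2 was the highest on 5 of 5 TRAF3 probes, reaching 0.72 on A_69_P023656.

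The spread of TRAF3 lay in the control channel. Across the arrays, after the arrays were brought to a common intensity scale, the SD of the log2 signal was 0.13 to 0.27 in Cy3 and 0.03 to 0.09 in Cy5, while the median over all tested probes was 0.11 in Cy3 and 0.14 in Cy5. Replicate 2 had the lowest control signal on all 5 probes, for example 92.4 against 113.7, 172.9 and 125.7 on A_69_P023656. Without replicate 2, the TRAF3 means fell to between 0.26 and 0.35 and 0 of the 5 probes was called.

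TRAF5, a close relative of TRAF2, could not be assigned a direction. Its log2 ratios were -0.45, 0.13, 0.24 and 0.37, a mean of 0.07 ± 0.36 (SD, n = 4) with an adjusted p of 0.686. Replicate 1 was negative and the other 3 arrays positive, and for this probe the wider spread was in the HMB-treated channel (SD of 0.39 on the log2 scale, against 0.20 in the control). The 95% interval of the mean ran from -0.26 to 0.41 and includes changes as large as that of RIPK1.

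The probe described as TRAF6 (A_69_P009036), the TRAF of the Toll-like and interleukin-1 receptors, gave -0.19, 0.10, -0.10 and -0.20. The mean was -0.10 ± 0.14 (SD, n = 4) with an adjusted p of 0.313 and a 95% interval from -0.28 to 0.08. The control signal was 1134 to 1562 and the HMB-treated signal 983.8 to 1453, so the groups overlapped.

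The receptor-interacting kinases had small differences. RIPK1, the kinase at the fork between NF-kB activation and cell death, had log2 ratios of 0.40, 0.26, 0.41 and 0.47, a mean of 0.39 ± 0.09 (SD, n = 4). The FC was 1.31 and the adjusted p 0.00431, so it was called with an FC just over the threshold. The 4 arrays were positive and the SD was the second lowest among the probes of the list. Without replicate 3 or replicate 4 the mean was 0.38 and 0.36, under the FC threshold. Its probe lies at chr20:3275407-3275466 on the plus strand.

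RIPK2, the kinase downstream of the NOD receptors, was not called on either probe. The ratios were 0.04, 0.05, 0.15 and 0.24 on A_69_P043921 (mean 0.12, adjusted p = 0.172) and 0.19, 0.16, 0.30 and 0.45 on A_69_P043922 (mean 0.27, adjusted p = 0.0227, FC of 1.21). The second probe was higher on 4 of 4 arrays, by 0.15 on average, while both probes ordered replicates 3 and 4 above 1 and 2.

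TRADD, the death domain adaptor that brings TRAF2 to the TNF receptor, was the only member by symbol with a negative mean. Its ratios were -0.17, -0.17, -0.22 and -0.51, a mean of -0.27 ± 0.16 (SD, n = 4). The adjusted p was 0.0346 with an FC of 1.20 below the threshold, so TRADD was not called. Its signal was low, at 46.8 to 63.4 in the control, and its Cy5 channel was well above background on 3 of the 4 arrays.

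**Figure D1:**
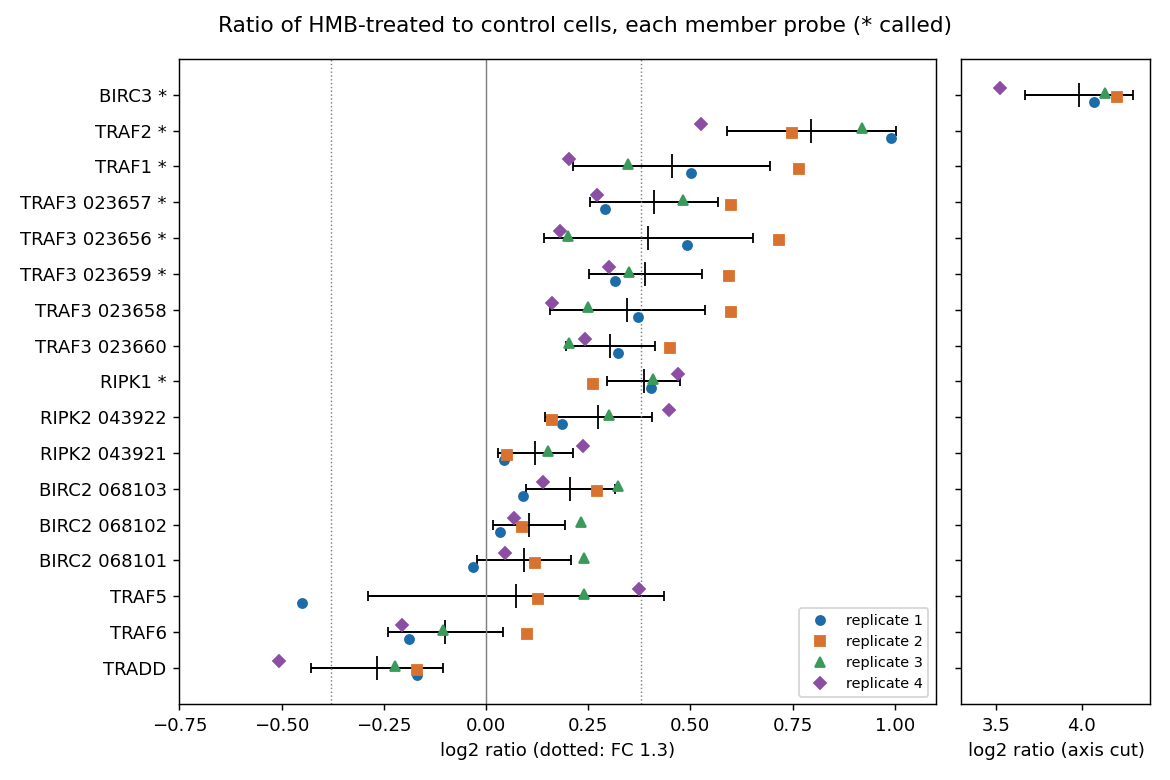
Log2 ratio of the HMB-treated over the control signal on each of 4 arrays for every probe of the list (colored symbols by replicate), with the mean and SD (black) and the FC threshold of 1.3 (dotted), on an axis cut between the TRAF2 and BIRC3 values. Numbers after a symbol are the last digits of the probe name, and an asterisk marks a called probe. BIRC3, at 3.52 to 4.20, stands apart from all others, of which none exceeds 0.99.

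When the genes were ordered by the mean on their brightest probe (BIRC3, TRAF2, TRAF1, RIPK1, TRAF3, BIRC2, RIPK2, TRAF5, TRAF6, TRADD), the array values of BIRC3 did not overlap those of TRAF2. All other neighbors in this order overlapped, so their order is not resolved by 4 arrays.

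**Figure D2:**
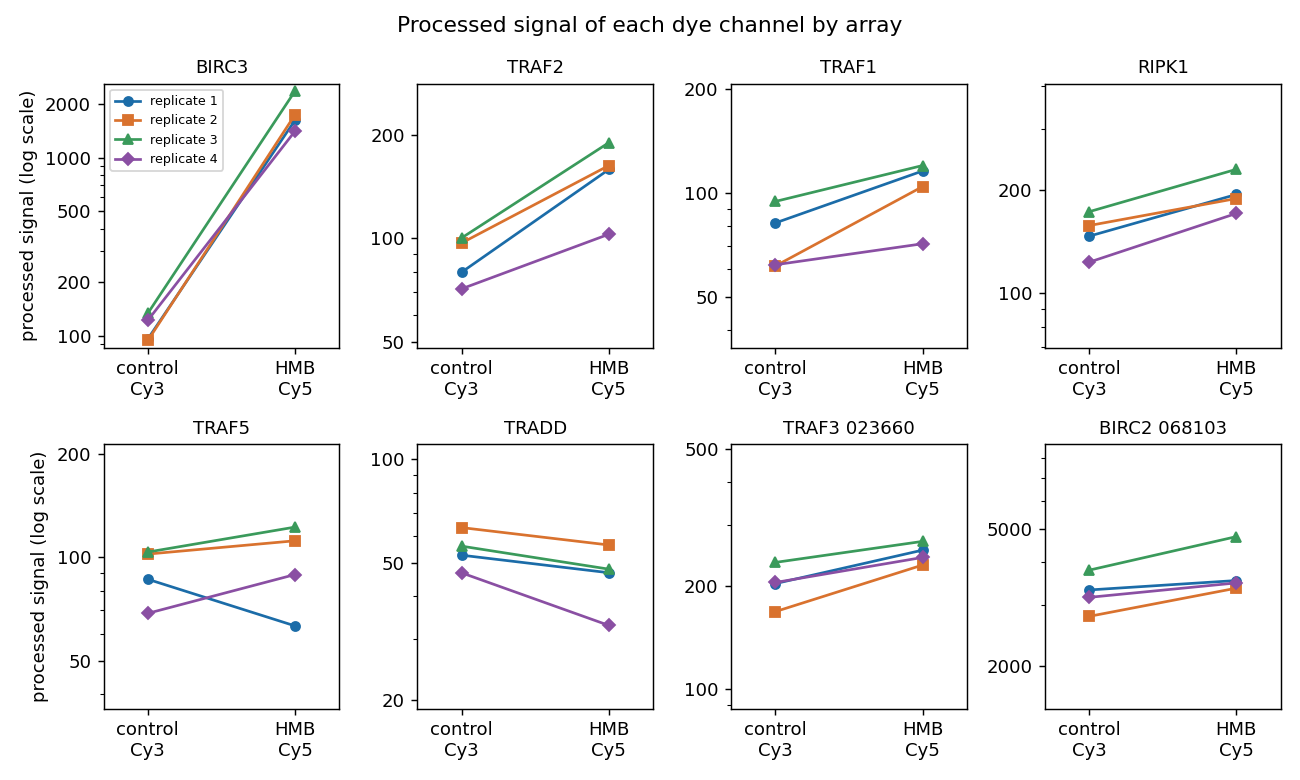
Processed signal (log scale, arbitrary units) in the control channel (Cy3) and the HMB-treated channel (Cy5) for 8 probes, with 1 line per array. The lines of BIRC3 climb from 94.6 to 134 in the control to 1410 or more, those of TRAF5 cross, and those of TRADD decline on each of the 4 arrays.

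How far the calls depend on the settings differed between the genes. BIRC3 and TRAF2 were called under all 13 other settings and without each replicate in turn. Under these settings BIRC3 ranged from 2.88 to 4.04 and TRAF2 from 0.38 to 0.81, the lowest value being at the FC threshold. TRAF1 was called in 7 of 13 settings and RIPK1 in 8 of 13. The TRAF3 probes A_69_P023657 and A_69_P023659 were called in 9 of 13 and A_69_P023656 in 7. The BIRC2, RIPK2 and TRAF5 probes were called under none of the 13 settings. The test for an FC above 1.3 (limma treat), normexp with loess, and loess without background correction each left BIRC3 and TRAF2 as the only genes called. Normexp was run with an offset of 50 in both channels, which by itself makes the ratios of dim probes smaller. Smaller values of dim probes under normexp, here and below, are thus partly set by that choice.

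The scaling changed directions. Scaling to the 10 spike-in probes moved the median of all tested probes from -0.07 to -0.48. All 10 were used without their nominal amounts, which were not at hand, so this scaling need not mark the level of no change. The share of higher among called probes was 42.5% as reported, 54.6% with treat, 55.0% with normexp, 60.1% without background correction, 53.9% with median centering and 8.31% with the spike-in scaling. Under the spike-in scaling BIRC3 and TRAF2 remained higher, TRADD and the TRAF6 probe were called as lower (means of -0.68 and -0.51), and the means of RIPK1 (-0.03) and of all 5 TRAF3 probes (-0.11 to -0.00231) turned negative without a call. The means of all RIPK2, BIRC2 and TRAF5 probes were also negative with this scaling, also without a call.

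**Figure D3:**
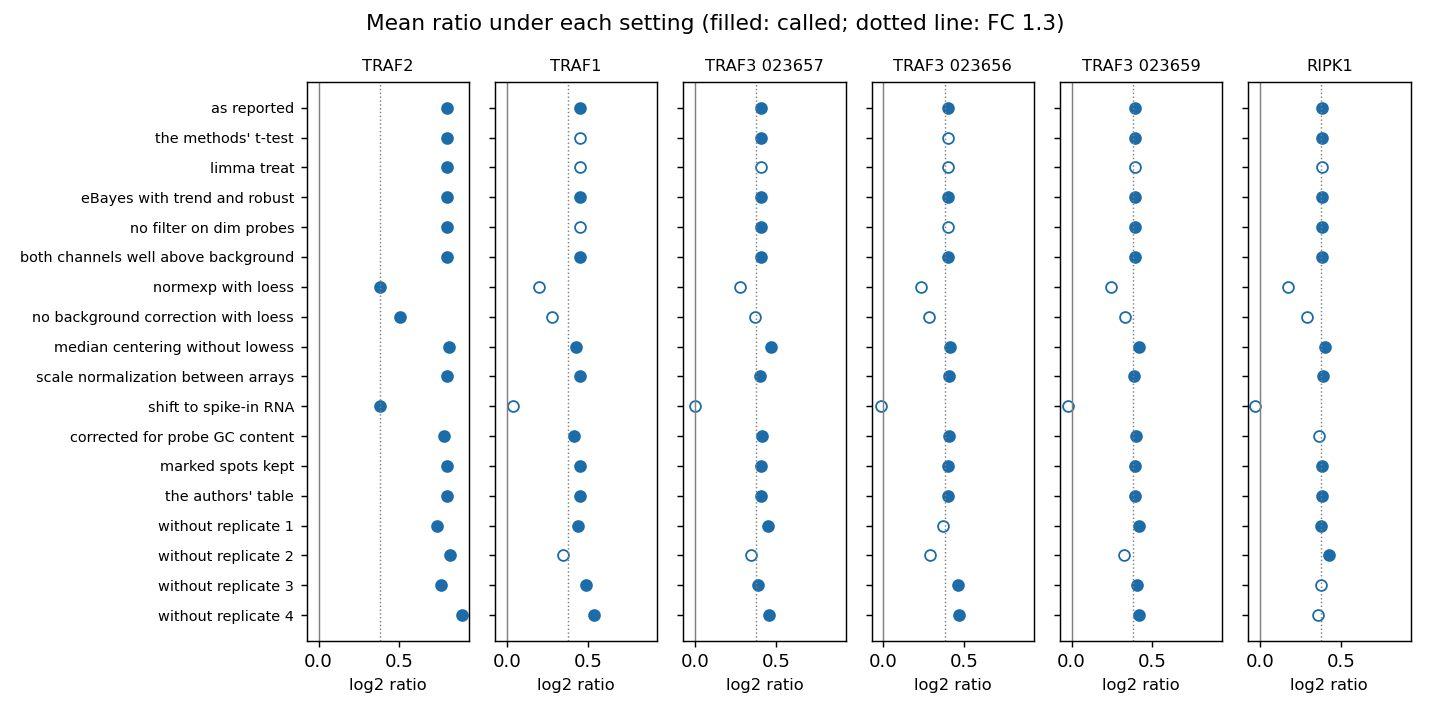
Mean log2 ratio of the 6 called probes other than BIRC3 under the reported and the 17 other settings, with filled circles where the probe was called and the FC threshold as a dotted line. TRAF2 is filled throughout, whereas TRAF1, TRAF3 and RIPK1 are open under normexp, without background correction, with treat and with the spike-in scaling.

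The genes around these adaptors were examined by 8 lists of their partners, with 87 genes in all, of which 64 passed the filter and are given by their brightest probe. In all, 30 rose and 3 fell, beside 10.1% higher and 17.2% lower over all tested symbols, and the same shares are the background of each list below. The lists were chosen with earlier results of these data known, so nothing beyond a description is drawn from these counts. The median log2 ratio of the 64 was 0.24, against -0.09 over all tested symbols. The receptors upstream rose in 4 of 7 and fell in none. TLR3, the receptor for double-stranded RNA, rose by 4.17 ± 0.10 (SD, n = 4, adjusted p = 8.92e-07). CD40, which signals through TRAF2, TRAF3 and TRAF6, rose by 2.30 ± 0.17 (adjusted p = 7.76e-06). TNFRSF1B, the TNF receptor that binds TRAF2 directly, rose by 0.77 ± 0.20 (adjusted p = 0.00103), while the death domain receptor TNFRSF1A was at 0.15 (adjusted p = 0.0793). These 3 calls held under all 17 other settings except that TNFRSF1B was not called with the spike-in scaling.

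The other receptor-proximal adaptors rose in 6 of 13 and fell in none, with a median of 0.06. MYD88, the adaptor of most Toll-like receptors, rose by 1.55 ± 0.21 (SD, n = 4, adjusted p = 7.08e-05), with all 7 of its tested probes called. TICAM2, which links TLR4 to TICAM1, rose by 1.295 ± 0.17 (adjusted p = 8.58e-05). TIFA, which binds TRAF6, rose by 0.82 ± 0.16 (adjusted p = 0.000476). FADD, the adaptor between death receptors and caspase-8, was at 0.06 (adjusted p = 0.639).

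Of the other TRAF, RIPK and IAP family genes, 2 of 6 rose and 1 fell. RIPK3, the kinase of necroptosis, rose by 1.01 ± 0.17 (SD, n = 4, adjusted p = 0.000243) and TRAF7 by 0.52 ± 0.15 (adjusted p = 0.00286). TRAF4, a TRAF with roles in epithelia and development, fell by 0.63 on the log2 scale (mean -0.63 ± 0.38, adjusted p = 0.013), in a range of -1.13 to -0.26. TRAF4 was called in 12 of 17 other settings, and its adjusted p was 0.0977 by the methods' t-test (limma gave 0.013). TRAF7 was called in 14 of 17, the losses being treat, normexp and the spike-in scaling (mean 0.10 with the last). XIAP, the caspase inhibitor of the IAP family, was at 0.28 (adjusted p = 0.0808). RIPK3 and TRAF7, like FADD above and MAP3K1 below, are named in the probe descriptions only.

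Regulators that bind TRAFs or edit ubiquitin chains rose in 5 of 8 and fell in none. TRAFD1, a negative regulator of Toll-like receptor signaling, rose by 1.87 ± 0.21 (SD, n = 4, adjusted p = 3.17e-05). CYLD, the deubiquitinase that trims chains from TRAF2 and RIPK1, rose by 0.84 ± 0.14 (adjusted p = 0.00035), and TRAF3IP2, the adaptor of the interleukin-17 receptor, by 0.77 ± 0.14 (adjusted p = 0.000484). TRAF3IP2 was called in 16 of 17 other settings, and was at 0.36 and not called with the spike-in scaling. None of the 5 writers of linear and K63-linked ubiquitin was called by limma or by the methods' t-test, and 1 had an unadjusted p of 0.05 or less in limma. This was RNF31, the catalytic subunit of the linear ubiquitin ligase, at 0.37 (adjusted p = 0.00946, FC of 1.29).

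The TAK1, IKK and related kinases were divided, with 4 of 11 higher and 2 lower, but 2 calls in place of 6 where both channels had to be well above background on all 4 arrays. MAP3K8 was not well above background in the control on any array, so the size of its rise is uncertain. With control values raised to at least the lowest signal well above background, the mean over the 4 arrays was 2.56-fold higher with HMB. Limma gave MAP3K8 an adjusted p of 0.00195. Its log2 ratios ran from 0.78 to 1.98, and with normexp it was at 0.33 and not called. IKBKE rose by 1.18 ± 0.25 (SD, n = 4, adjusted p = 0.000319), with a control well above background on 2 of 4 arrays, and was at 0.32 and not called with normexp. TBK1, its close relative bound by TRAF3 complexes, rose by 0.67 ± 0.11 (adjusted p = 0.000645). TBK1 was called in 16 of 17 other settings, and was at 0.26 and not called with the spike-in scaling. MAP3K7, which encodes TAK1, fell by 0.66 on the log2 scale (mean -0.66 ± 0.16, adjusted p = 0.00124), and MAP3K1 by 0.53 (mean -0.53 ± 0.38, adjusted p = 0.0227). MAP3K7 was called in 16 of 17 other settings, the loss being limma treat (adjusted p = 0.0509). MAP3K1 was well above background with HMB on 2 of 4 arrays and was called in 10 of 16 other settings, the losses including the methods' t-test and the fit without replicate 4 (mean -0.35). MAP3K14, the NF-kB-inducing kinase that TRAF2, TRAF3 and the cIAPs hold low, was at 0.21 (adjusted p = 0.205).

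The death arm had the highest median of the 8 lists, 1.33, with 6 of 10 genes higher and none lower (4 called where both channels had to be well above background). XAF1, an antagonist of XIAP, rose by 2.96 ± 0.13 (SD, n = 4, adjusted p = 1.97e-06). MLKL, the pore former of necroptosis, rose by 2.09 ± 0.32 (adjusted p = 7.18e-05), with a control well above background on 3 of 4 arrays, and its ratio was 0.75 with normexp. CASP8 rose by 1.37 (adjusted p = 0.000253), whereas the IAP antagonists DIABLO and HTRA2 were at -0.07 and -0.08. Outside the calls, 2 receptors, 2 adaptors and 2 regulators had negative means at an unadjusted p of 0.05 or less. Of the NF-kB subunits, 3 of 4 rose. NFKB1 rose by 0.95 ± 0.16 (adjusted p = 0.000293), RELB by 0.90 ± 0.32 (adjusted p = 0.00191) and REL by 0.39 ± 0.28 (adjusted p = 0.0285), and RELA was at 0.16 (adjusted p = 0.369). RELB was called in 16 of 17 other settings, and was at 0.29 and not called with normexp. REL was called in 6 of 17 other settings, and its mean was -0.02 with the spike-in scaling.

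**Figure D4:**
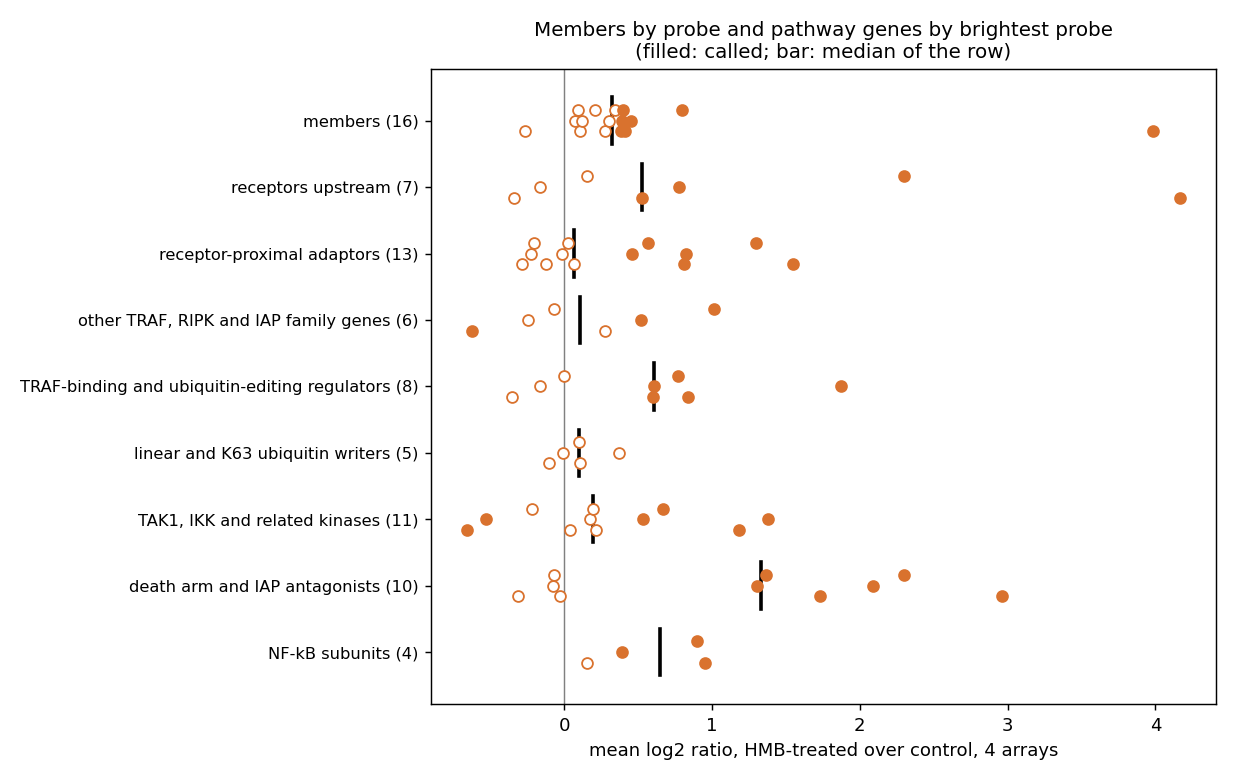
Mean log2 ratio over 4 arrays of the 16 probes of the list and of the tested genes of 8 partner lists on their brightest probe (number of points in brackets), with called probes filled and the median of each row as a bar. The medians run from 0.06 for the receptor-proximal adaptors to 1.33 for the death arm, and all 5 ubiquitin writers are open.

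Markers of cell types changed on the same arrays. All 10 myogenic markers measured were well above background in the control. MYF5, DES, MYH3, MYH8, ACTA1, CKM, NCAM1 and MYF6 fell, with a median of -1.12 over the 10 markers, and the summed signal was 169900 to 191800 in the control and 64850 to 103100 with HMB. MYOD1 and MYOG were at 0.32 and 0.03 and were not called. Of the 8 fibroblast markers on the array, all were detected and 5 rose (PDGFRA, DCN, THY1, FAP and LUM), with a summed signal of 417200 to 507300 in the control and 410900 to 641700 with HMB. Of 9 leukocyte markers, 3 were above background and CD68 rose (summed signal 4308 to 5201 in the control, 5058 to 7239 with HMB), while CD3E, CD79A, CSF1R, ITGAM, AIF1 and SPI1 were not above background. Of 6 endothelial markers ERG alone was above background and was not called (summed signal 190.8 to 309.8 and 232.6 to 369.9), and 0 of 4 adipocyte markers was detected. Fewer cells of a type and less RNA per cell cannot be told apart in bulk RNA, and the part of these shifts in the results on the adaptors was not tested.

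Over the whole array, the ratios of 4 arrays correlated with each other at r = 0.837 to 0.920 across probes, and 57.6% to 60.6% of the probes in Cy3 and 55.2% to 61.8% in Cy5 were well above background. No spot was saturated. The number of arrays limits the precision, with a median SD of 0.16 for the log2 ratio of a tested probe.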

How the data were processed

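The values are those of 4 two-color Agilent horse arrays with 60-base probes. The intensity values in the deposited scanner files are the spot signals of each channel, and the processed signal is background-subtracted and dye-normalized by the authors' run of Feature Extraction (version 10.10.1.1 per the file headers). The log10 values the authors deposited are ratios of the processed Cy5 signal over Cy3, and a table of normalized values repeats them (largest difference 3.96e-05). Multiplying the deposited log10 ratios by log2 of 10 gave the log2 ratios. Scanner flags in the deposited files (other values) marked control, non-uniform, outlier and dim spots. No between-array normalization was added, except for the spread of single channels, which used quantile-normalized mean intensity. Signals near background are replaced by a surrogate upstream, which can limit the ratio of dim probes. The reported ratios of dim probes were larger in size than those with normexp. The normexp setting added an offset of 50 to both channels, which by itself makes the ratios of dim probes smaller. The comparison therefore cannot show which of the ratios is closer to the true one. MAP3K8, IKBKE, MLKL and MAP3K1 were at 1.38, 1.18, 2.09 and -0.53 as reported, and at 0.33, 0.32, 0.75 and -0.15 with normexp.

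Control spots and 13 to 35 marked spots per array were left out, and spots of 1 probe were averaged. Tested probes had 1 channel well above background on all 4 arrays and ratios on at least 3. The intercept model of limma 3.58.1 in R 4.3.3 with empirical Bayes moderation was used, with adjustment by Benjamini-Hochberg across the tested probes and thresholds of 0.05 and FC 1.3. The arrays are biological replicates per the labels. Genes named by symbol were taken from the files, and a few accession-named probes by description. A partner list names the up to 3 largest rises and falls among called genes with 1 sign on all arrays, with a few uncalled or lower-ranked relatives added after their values were seen. The members, lists and rules were chosen with earlier results of these data known. The tests were first tried on simulated data. Alternatives are given under the closing section. A few genes that these rules name are not reported here. RT-qPCR and miRNA data were not analysed here.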

Additional observations from a re-analysis of the deposited data

Results flagged for a closer look

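In 3 of the 40 ratios examined (the 17 member probes and the 23 named partners), 1 array lay apart from the other 3 by Dixon's criterion at 95%, which chance does in about 1 of 20 groups. TRADD was at -0.51 on replicate 4, against -0.22 to -0.17 on the other arrays. The TRAF3 probe A_69_P023659 was at 0.60 on replicate 2, against 0.30 to 0.35. MAP3K1 was at -1.09 on replicate 4, against -0.39 to -0.28.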

How the results depend on the processing

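The number of probes called over the array was 7046, and 2822 with limma treat, 3539 with normexp and loess, 4440 with loess and no background correction and 16725 with the spike-in scaling. The member probes called higher were 7, and 2 under each of these 4 settings. The genes with a called probe were 5, and 2 with treat, 2 with normexp, 2 without background correction and 3 with the spike-in scaling, where 1 probe (TRADD) was called lower instead of 0. The partner genes called were 33, and 20 with normexp. Leaving out 1 replicate gave 3 to 7 member probes called higher and 3 to 5 genes, the lowest without replicate 2. Under the spike-in scaling the called TRAF3 probes turned to -0.0153, -0.00231 and -0.0228 (A_69_P023656, A_69_P023657 and A_69_P023659), RIPK1 to -0.0272 and REL to -0.022, none of them called. The cause of these changes was not tested. TRAF1 had an adjusted p of 0.0796 by the methods' t-test with n = 4 (limma gave 0.0121). The other counts for the array, the member probes and all partner genes stayed within 1.5 times. Within single partner lists 16 counts moved by more, among them the kinases, with 2 calls in place of 6 with the filter on both channels or with normexp, and the ubiquitin writers, with 1 call in place of 0 with median centering and without replicate 2 or 4. Both groups lie on each array, so the ratios are paired throughout. The spike-in scaling used all 10 spike-in probes, since their nominal amounts were not at hand, and dim probes such as TRADD have the least signal over background.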
